A study of Mus musculus with 17 samples.

Results

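The 2′-5′ oligoadenylate synthetases (OAS) and their relatives were followed through colon tumors of mice with an intact or deleted Tyk2 gene. The members are the 8 genes Oas1a, Oas1b, Oas1c, Oas1g, Oas2, Oas3, Oasl1 and Oasl2, taken by symbol from the 55421 genes of the count tables, with earlier results of these data known. All 8 were present and all 8 passed the filter on low counts in every comparison, with 27 to 1900 reads per gene and library.

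OAS enzymes are sensors of double-stranded RNA. Once bound to it they join ATP into 2′-5′-linked oligoadenylates (2-5A) as a second messenger of the antiviral response. Their genes are classic targets of type I interferon, whose receptor signals through the Janus kinases Tyk2 and Jak1. The signal leads to a factor complex with Stat2 and Irf9 that binds interferon-stimulated response elements (ISRE) in promoters. Interferon gamma does not activate Tyk2, as the study states in its introduction. Oas1a, Oas1g, Oas2 and Oas3 encode enzymes, Oas1b is known as the flavivirus resistance gene and is truncated in most laboratory strains, and Oas1c and the OAS-like protein Oasl1 are regarded as lacking synthetase activity, whereas Oasl2 retains it.

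RNA of tumors induced with azoxymethane (AOM, a mutagen) and dextran sulfate sodium (DSS, which inflames the colon) was sequenced from 4 genotypes on a C57BL/6 background, and every group had received AOM and DSS. Tyk2wt mice (Tyk2+/+, 3 libraries) and Tyk2KO mice (Tyk2Δ/Δ, 3 libraries) came from crosses of carriers of a germline deletion that had been made with a CMV-cre deleter strain and then outcrossed. Tyk2fl mice (Tyk2fl/fl, 7 libraries) carry the floxed gene without cre, and Tyk2DIEC mice (Tyk2ΔIEC, 4 libraries) carry it with Villin-cre, which deletes it in intestinal epithelial cells and leaves it in stromal and immune cells. Ages are not given in the sources used here. The study's sequencing methods name RNA of macrodissected tumors, and a figure legend names pooled tumor samples after its qPCR panels. Whether the sequenced libraries were pools, and whether each came from a separate mouse, is not stated. The p-values therefore measure the spread between these libraries.

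Counts on genes totalled 19129696 to 21707373 in the Tyk2wt, Tyk2KO and Tyk2DIEC libraries and 29777763 to 35427965 in the Tyk2fl libraries. Tyk2 itself had log2 changes of 0.05 ± 0.05 (SE) in Tyk2KO and 0.10 ± 0.07 in Tyk2DIEC tumors and passed the threshold in neither (adjusted p = 0.645 and 0.321, edgeR). The deleted exon 3 holds the start codon and is only a small part of the transcript, so the count of the whole gene checks no label. All 9 colon epithelial markers had reads in every group. Xist, the RNA that coats the inactive X chromosome, was counted with 40656 to 45446 reads in Tyk2fl replicates 1 to 3 and at most 106 in all other libraries, so the members' changes in Tyk2DIEC and Tyk2wt against Tyk2fl, and the difference between the deletions, were also computed with Tyk2fl replicates 4 to 7 alone.

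All 8 members lie on chromosome 5 (GRCm38), in 2 clusters. Oasl2 (chr5:114896936-114912234, plus strand) and Oasl1 (chr5:114923240-114937915, plus strand) form the first, 11005 bases apart. The second spans 191320 bases and holds 10 genes of the family, in the order Oas2 (chr5:120730333-120749853, minus), Oas3 (chr5:120753098-120777661, minus), Oas1c (chr5:120800194-120812514, minus), Oas1b (chr5:120812635-120824163, plus), Oas1g (chr5:120876142-120887613, minus) and Oas1a (chr5:120896256-120907521, minus) among the members. Oas1b is annotated as a polymorphic pseudogene and the other 7 as protein coding. Of the 4 further Oas1 genes in this cluster, Oas1d had at most 4 reads in any library, Oas1e and Oas1f at most 1 and Oas1h 0.

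The bases just before the transcription start are shown for 4 members, because the core ISRE letters occur in them (RefSeq promoters, GRCm38.p6, 5′ to 3′ on the strand of the gene, bases -120 to -1, with the core GAAANNGAAA or its reverse complement in capitals and overlapping matches merged).
Oas1a: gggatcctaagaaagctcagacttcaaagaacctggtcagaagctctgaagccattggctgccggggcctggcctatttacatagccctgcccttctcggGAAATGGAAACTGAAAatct
Oas1g: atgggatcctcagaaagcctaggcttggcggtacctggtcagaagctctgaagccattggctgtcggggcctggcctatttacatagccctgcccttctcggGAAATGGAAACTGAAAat
Oas1c: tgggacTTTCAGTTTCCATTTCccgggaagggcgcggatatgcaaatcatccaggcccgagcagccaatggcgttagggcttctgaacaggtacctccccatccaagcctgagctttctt
Oas3: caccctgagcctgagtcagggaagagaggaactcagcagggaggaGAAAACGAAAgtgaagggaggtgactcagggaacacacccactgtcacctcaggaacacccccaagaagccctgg
These stretches are chr5:120907526-120907645 for Oas1a, chr5:120887614-120887733 for Oas1g, chr5:120812515-120812634 for Oas1c and chr5:120777660-120777779 for Oas3, all on the minus strand.

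Promoters of 6 of the 8 members were at hand, those of Oas1b and Oas2 were not used here. In the window from 250 bases before to 50 bases after the start, searched on both strands, 4 of the 6 held the core, against 3.44% of 32851 mouse promoters of the same length. Oas1a and Oas1g each held 2 overlapping matches that began at -20 and -14 and at -18 and -12, and Oas3 held 1 at -75. The Oas1a and Oas1g stretches were 91.5% identical over 118 bases. No match was found in the windows of Oasl1 and Oasl2, which says only that these letters are not there. TTCNNNGAA, the letters of a gamma-activated site, occurred only in Oas1a, at -98, and in 8.3% of all promoters.

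Oas1c and Oas1b run away from each other, with 120 bases between their annotated starts, so the stretch shown for Oas1c is also the stretch before Oas1b. Read on the Oas1b strand (plus, chr5:120812609-120812638), the match nearest to Oas1b stands as follows beside the Oas1a and Oas1g matches nearest to their starts.
Oas1b side: ccgggaaatgGAAACTGAAAgtcccatttc
Oas1a: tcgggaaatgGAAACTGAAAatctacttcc
Oas1g: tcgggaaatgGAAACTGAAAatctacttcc
The letters in capitals are the same in all 3. They lie at -16 to -7 from the annotated Oas1b start and begin at -114 from the Oas1c start, and the windows are chr5:120907520-120907549 for Oas1a and chr5:120887606-120887635 for Oas1g.

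Deletion of Tyk2 in all cells was asked first. In Tyk2KO tumors 6 of the 8 members were lower than in Tyk2wt tumors. Oas3 and Oas2 fell most, Oasl2 came next, and Oas1a, Oas1b and Oas1g fell less. A gene was called at an adjusted p under 0.05 (quasi-likelihood test of edgeR, Benjamini-Hochberg adjustment over all genes) and a change over 2-fold, and 1.21% of the 16179 genes tested were called lower. The median log2 change of the members was -1.39, and that of all genes tested was 0.00. Levels are given as CPM, the reads of a gene relative to a library's total, with TMM factors (trimmed mean of M values) computed over the 17 libraries.

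Oas3, the largest OAS enzyme, had 10.3, 18.6 and 23.9 CPM in Tyk2wt and 2.63, 1.93 and 1.88 CPM in Tyk2KO tumors. The lowest control library was thus above every library of the deletion, and the control libraries were themselves spread, with replicate 1 lowest. Oas3 was 8.19-fold lower (log2 change -3.03 ± 0.32 SE, adjusted p = 0.00382).

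Oas2, a mid-sized OAS enzyme, had 12.3, 13.9 and 22.2 CPM in Tyk2wt and 2.08, 1.69 and 2.49 CPM in Tyk2KO tumors. The 2 groups were again apart, and replicate 3 was the highest control. The decrease was 7.72-fold (log2 change -2.95 ± 0.27, adjusted p = 0.00197). Oas2 and Oas3 lie next to each other. The log2 ratio of Oas3 to Oas2 reads overlapped between these 2 genotypes (-0.25 to 0.42 in Tyk2wt, -0.41 to 0.34 in Tyk2KO).

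Oasl2, the member with the most reads in each Tyk2wt library, had 45.2, 62.0 and 91.4 CPM in Tyk2wt and 13.7, 10.8 and 12.7 CPM in Tyk2KO tumors. All control libraries were above all libraries of the deletion. It was 5.35-fold lower (log2 change -2.42 ± 0.24, adjusted p = 0.00303).

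Oas1a, the main OAS1 enzyme of the mouse, had 33.2, 33.6 and 43.8 CPM in Tyk2wt and 15.4, 13.4 and 13.7 CPM in Tyk2KO tumors. Oas1g, its near copy, had 11.3, 11.6 and 13.4 CPM against 4.94, 4.51 and 4.51 CPM. Both were apart between the groups, and both fell 2.61-fold, Oas1a with a log2 change of -1.39 ± 0.13 (adjusted p = 0.00200) and Oas1g with -1.38 ± 0.13 (adjusted p = 0.00249). Of the 75-base windows of their transcripts, the read length used, 47.6% in Oas1a and 36.9% in Oas1g were identical with the other gene, so reads from these windows could not be given to either, and their levels are uncertain to that extent.

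Oas1b had 3.97, 3.69 and 4.71 CPM in Tyk2wt and 1.62, 1.34 and 1.78 CPM in Tyk2KO tumors, also without overlap. It fell 2.61-fold too (log2 change -1.39 ± 0.21, adjusted p = 0.0164). This was the least firm of the 6 calls. Without Tyk2wt replicate 3, Tyk2KO replicate 1 or Tyk2KO replicate 2 its adjusted p lay above the threshold, up to 0.0848, whereas the other 5 were called whichever library was left out.

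The 2 members that did not pass were Oasl1 and Oas1c. Oasl1, known as a brake on translation of Irf7, had 18.0, 30.6 and 37.6 CPM in Tyk2wt and 16.0, 12.3 and 16.4 CPM in Tyk2KO tumors. Tyk2wt replicate 1 was close to the libraries of the deletion without overlapping them, and the log2 change was -0.95 ± 0.25 (adjusted p = 0.0840). Without Tyk2wt replicate 1 Oasl1 was called, with a log2 change of -1.20 and an adjusted p of 0.00997.

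Oas1c had 3.35, 3.33 and 3.18 CPM in Tyk2wt and 1.85, 2.03 and 2.82 CPM in Tyk2KO tumors. The groups did not overlap, with replicate 3 the highest library of the deletion, but the log2 change of -0.56 ± 0.21 gave an adjusted p of 0.175. An antisense gene overlaps 5430 bases of Oas1c, and that gene had at most 1 read in any library.

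**Figure D1:**
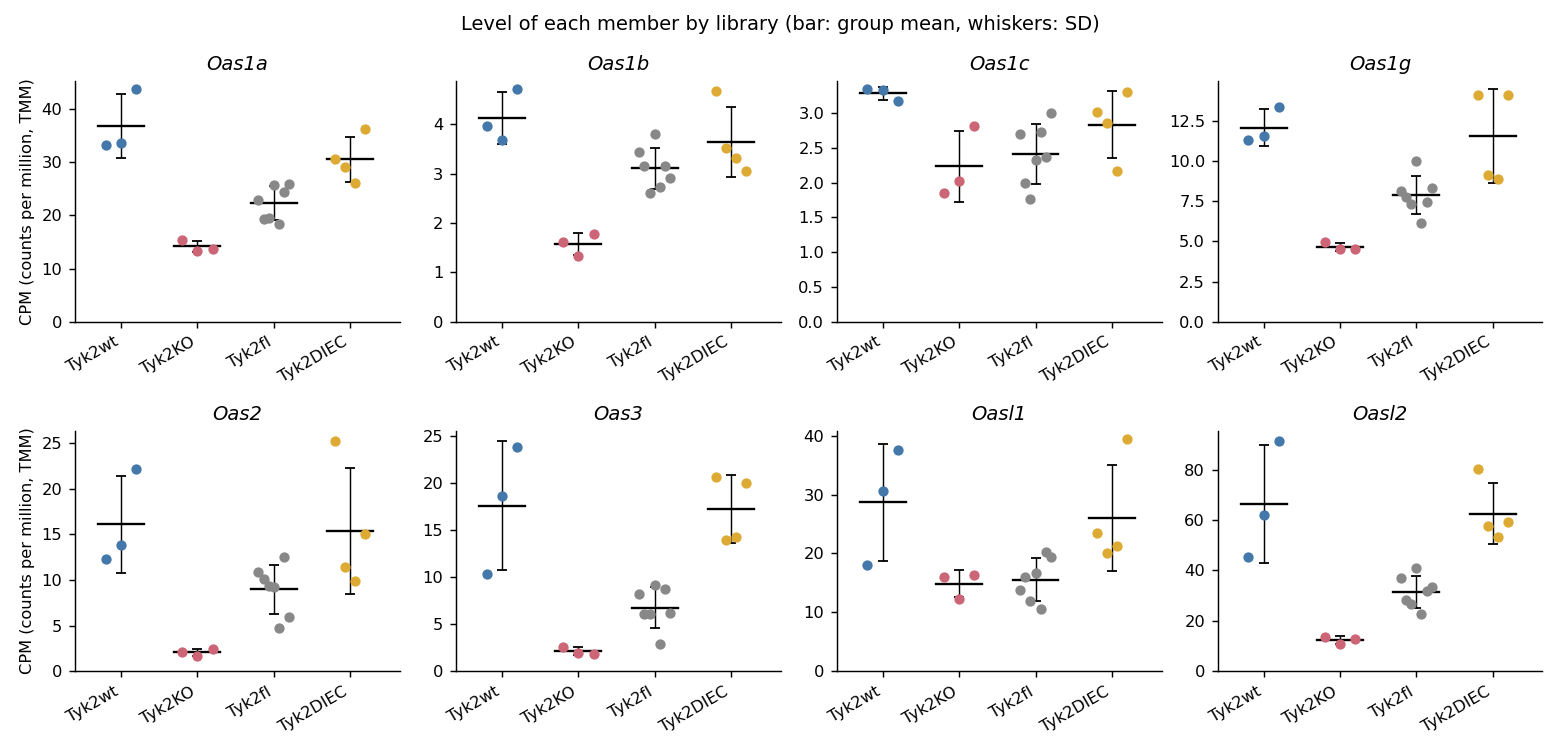
Level of each of the 8 members in CPM (TMM, y axes start at 0) by library for the genotypes Tyk2wt (n = 3), Tyk2KO (n = 3), Tyk2fl (n = 7) and Tyk2DIEC (n = 4). Points are libraries, bars group means and whiskers SD. In all 8 panels the Tyk2KO libraries sit below the Tyk2wt libraries, and the Tyk2DIEC libraries of Oas1a, Oas3 and Oasl2 sit above all 7 Tyk2fl libraries.

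Over all 8 members the Tyk2KO libraries were below the Tyk2wt libraries without overlap, as were those of 13.9% of all genes tested. Summed over the members, the libraries held 138, 177 and 240 CPM in Tyk2wt and 58.2, 48.0 and 56.2 CPM in Tyk2KO tumors. Tyk2wt replicate 3 was the highest control for 7 of the 8 members, and replicate 1 the lowest for 6.

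Cell markers moved in the same comparison. Of 10 T cell and NK cell markers 4 of the 6 tested were called lower (summed level 16.7 to 24.2 CPM in Tyk2wt, 6.70 to 9.21 in Tyk2KO), and of 4 pan-leukocyte markers 3 passed the adjusted p as lower (135 to 171 against 85.5 to 108 CPM). By the adjusted p alone 5 of 6 smooth muscle markers were lower (229 to 412 against 103 to 168 CPM). So were S100a8 and S100a9 of 5 neutrophil markers (176 to 227 against 123 to 133 CPM). Of all genes tested 1.21% were called lower and 2.13% were lower by the adjusted p alone. The 3 tested of 6 B cell markers did not pass, with summed levels of 250 to 273 against 65.3 to 199 CPM, nor did any macrophage, dendritic, epithelial, fibroblast or endothelial marker. The dendritic sums were nevertheless apart, at 6.87 to 8.18 against 4.34 to 4.70 CPM. Those of the macrophage, epithelial, fibroblast and endothelial lists overlapped. No marker list had a gene without reads in a genotype. In bulk RNA, fewer cells of a type and less RNA per cell cannot be told apart, and the part of these cells in the decrease of the members was not tested.

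Deletion in the epithelium alone was asked next. In Tyk2DIEC tumors all 8 members had a positive log2 change against Tyk2fl, with a median of 0.65, but only Oas3 passed both thresholds. That is 1 of 8, and 1.48% of the 17668 genes tested were called higher. By the adjusted p alone 5 of the 8 rose (Oas1a, Oas1g, Oas3, Oasl1 and Oasl2), against 10.2% of all genes. Every Tyk2fl library was deeper than every Tyk2DIEC library (29777763 to 35427965 against 19129696 to 20334948 counts on genes). Depth and genotype thus cannot be told apart in this comparison.

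Oas3 had 20.7, 14.0, 14.3 and 20.0 CPM in Tyk2DIEC tumors and, in the 7 Tyk2fl libraries, a lowest level of 2.90, a median of 6.19 and a highest of 9.15 CPM. Every Tyk2DIEC library was above every control library, as was the case for 3 of the 8 members and 7.73% of all genes. It was 2.54-fold higher (log2 change 1.35 ± 0.25, adjusted p = 0.00399), and 1.34 ± 0.32 (adjusted p = 0.0164) against Tyk2fl replicates 4 to 7 alone.

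Oasl2 had 80.2, 57.5, 53.2 and 59.1 CPM in Tyk2DIEC and 22.6, 31.8 and 41.1 CPM as lowest, median and highest of Tyk2fl. The groups were apart, with Tyk2DIEC replicate 1 well above the other 3. The rise was 1.98-fold (log2 change 0.98 ± 0.15, adjusted p = 0.00185), just short of the fold minimum, and in 4 of the 11 fits that each left out 1 library it was past it.

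Oas1a rose 1.37-fold, from a median of 23.0 CPM (18.4 to 26.0) in Tyk2fl to 30.7, 29.2, 26.2 and 36.3 CPM (log2 change 0.45 ± 0.12, adjusted p = 0.0197). The lowest Tyk2DIEC library, replicate 3, was only just above the highest control. Oas1g rose 1.46-fold, from 7.80 CPM (6.16 to 9.99) to 14.1, 9.14, 8.90 and 14.1 CPM (log2 change 0.55 ± 0.16, adjusted p = 0.0306). Replicates 1 and 4 of Oas1g were above all controls and replicates 2 and 3 were among them.

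Oasl1 rose 1.68-fold (log2 change 0.74 ± 0.21, adjusted p = 0.0261), with 23.4, 20.1, 21.3 and 39.4 CPM in Tyk2DIEC and 10.6, 16.0 and 20.3 CPM as lowest, median and highest of Tyk2fl. Its Tyk2DIEC replicate 2 lay within the control range and replicate 4 far above the other 3. Whether Oas1a, Oas1g and Oasl1 passed the adjusted p depended on single libraries. Without Tyk2DIEC replicate 4 their adjusted p were 0.0792, 0.115 and 0.111, that of Oas1a was 0.0525 without Tyk2DIEC replicate 2, and that of Oas1g reached 0.106 without Tyk2DIEC replicate 1 and 0.0532 to 0.0572 without Tyk2fl replicate 2, 5 or 6. Against Tyk2fl replicates 4 to 7 alone, Oas1a, Oas1g and Oasl1 no longer passed (adjusted p = 0.0811, 0.0998 and 0.104), while Oasl2 did (0.00787). In Tyk2fl tumors the replicates with high Xist overlapped the others for all 8 members.

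Oas2, Oas1b and Oas1c did not pass. Oas2 had 25.2, 11.4, 9.91 and 15.0 CPM in Tyk2DIEC and 4.80, 9.30 and 12.5 CPM as lowest, median and highest of Tyk2fl, so that replicates 2 and 3 lay among the controls (log2 change 0.77 ± 0.28, adjusted p = 0.0677). Oas1b (log2 change 0.23 ± 0.16, adjusted p = 0.341) and Oas1c (0.23 ± 0.18, adjusted p = 0.401) overlapped their controls as well. Their intervals of 95% reached from -0.09 to 0.54 and from -0.13 to 0.59. Against Tyk2fl replicates 4 to 7 alone the log2 changes were 0.90 for Oas2 (adjusted p = 0.0962), 0.20 for Oas1b (0.503) and 0.10 for Oas1c (0.729).

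The range of marker sums of Tyk2DIEC tumors overlapped that of Tyk2fl tumors for all 10 marker lists. Single markers did pass as lower, namely Coro1a and Laptm5 of the leukocyte list, C1qa of the macrophage list and 4 of 6 fibroblast markers, Tek of the endothelial list passed as higher, and none of the T cell and NK cell, B cell, dendritic, neutrophil, smooth muscle or epithelial markers passed. Of all genes 9.71% passed as lower and 10.2% as higher in this comparison. The part of these cells in the rise of the members was not tested.

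**Figure D2:**
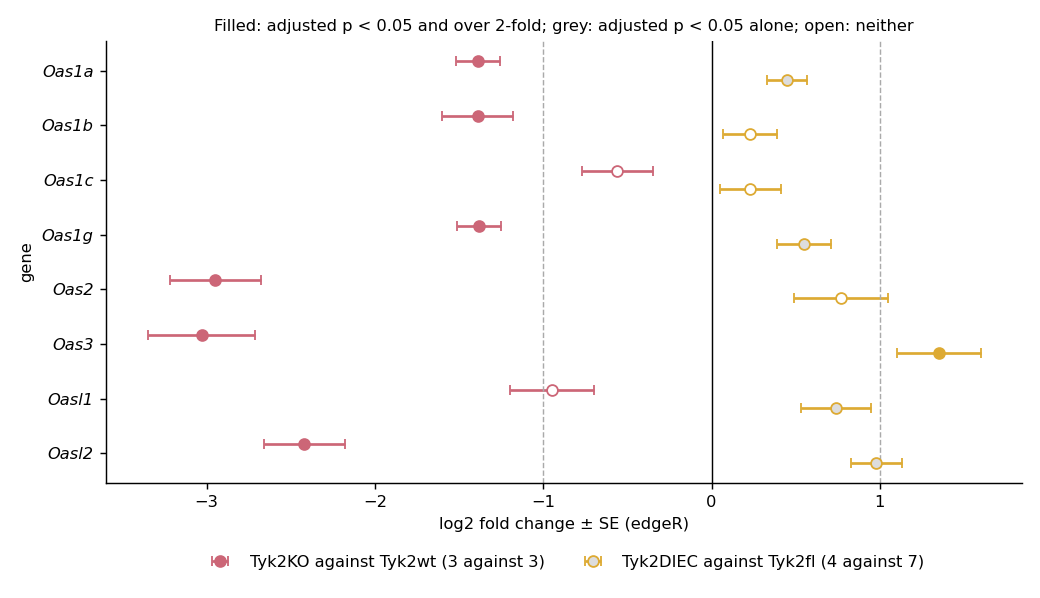
Log2 fold change with its standard error (x axis, edgeR) for the 8 members (y axis) in Tyk2KO against Tyk2wt and in Tyk2DIEC against Tyk2fl tumors. Dashed lines mark a 2-fold change. The 8 members lie below 0 in the first and above 0 in the second comparison.

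Whether both deletions changed a member unequally was tested with the 17 libraries in a joint model. For 7 of the 8 members the log2 change differed between the deletions at an adjusted p under 0.05, as it did with the same sign for 5.23% of 17252 genes. The difference (change in Tyk2KO minus change in Tyk2DIEC) was -4.38 ± 0.46 for Oas3 (adjusted p = 4.45e-05), -3.72 ± 0.48 for Oas2 (1.94e-04) and -3.40 ± 0.30 for Oasl2 (1.17e-05). It was between -1.93 and -1.61 for Oas1a, Oas1b, Oas1g and Oasl1. Oas1c alone did not pass (-0.79 ± 0.28, adjusted p = 0.0990). With Tyk2fl replicates 4 to 7 alone the same 7 passed, at differences of -4.36 to -1.56.

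The 2 control genotypes were not at the same level. Tyk2wt was above Tyk2fl by a log2 difference of 1.38 ± 0.27 for Oas3 (adjusted p = 0.00546) and of 1.07 ± 0.19 for Oasl2 (0.00300), the 2 members past both thresholds, and 1.41% of all genes were called higher. The Tyk2wt libraries had no high Xist, and against Tyk2fl replicates 4 to 7 alone Oas3 (1.37 ± 0.33, adjusted p = 0.0205) and Oasl2 (1.02 ± 0.22, 0.0124) were still past both thresholds. Without Tyk2wt replicate 3 neither of the 2 was called (adjusted p = 0.0729 and 0.0511), and without Tyk2fl replicate 5 Oasl2 was under 2-fold. By the adjusted p alone Oas1a, Oas1g and Oasl1 passed as well, 5 of 8 against 7.37% of all genes as higher. The libraries of Oas1a, Oas1c, Oas1g, Oas3 and Oasl2 were apart, 5 of 8 against 7.23% of all genes. Of these Oas1c did not pass (adjusted p = 0.120), while Oasl1 passed with overlapping libraries. Against Tyk2fl replicates 4 to 7 alone Oas1a passed the adjusted p (0.0136) and Oas1g (0.0583) and Oasl1 (0.0878) did not. Every Tyk2fl library was also deeper than every library of the other genotypes, Tyk2DIEC among them, and the strains crossed differ between the experiments. Genotype and experiment cannot be told apart here, nor can the Tyk2fl genotype and depth.

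Ordered by mean level, the genotypes ran Tyk2wt, Tyk2DIEC, Tyk2fl, Tyk2KO for each of the 8 members. The share of all genes in this order was not computed, and the order spans both experiments. For Oas3 the means were 17.6 ± 6.84 (SD, n = 3), 17.3 ± 3.60 (n = 4), 6.78 ± 2.16 (n = 7) and 2.15 ± 0.421 CPM (n = 3), and for Oasl2 66.2 ± 23.4, 62.5 ± 12.1, 31.6 ± 6.33 and 12.4 ± 1.47 CPM. No member passed between Tyk2wt and Tyk2DIEC, the first pair of neighbours (log2 differences of -0.27 to -0.03 for Tyk2DIEC minus Tyk2wt, adjusted p of 0.280 to 0.969), with standard errors of 0.14 to 0.33. Of all genes 2.96% passed between these 2 genotypes in either direction. Between Tyk2DIEC and Tyk2fl 6 of 8 passed in this fit over all libraries, Oas2 among them (adjusted p = 0.0412). Between Tyk2fl and Tyk2KO 6 of 8 passed, with Oas1c (0.740) and Oasl1 (0.892) the exceptions. Of all genes 25.6% and 12.4% passed in these 2 steps, counted in either direction, whereas the members passed in the direction of the order only.

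Levels of different genes were compared per kilobase of exon. The exon length includes the stretches that Oas1a and Oas1g share (47.6% and 36.9% of their windows). Reads from these could not be given to either gene, so the levels per kb of both are uncertain to that extent. In Tyk2wt tumors Oas1a stood highest at 19.6 CPM per kb, before Oasl1 (11.0), Oasl2 (10.4), Oas1g (5.17), Oas2 (3.62), Oas3 (2.49), Oas1b (2.07) and Oas1c (1.37). Oasl1 and Oasl2 changed places from library to library, as did Oas3 and Oas1b, while the other neighbours kept their order in all 3 libraries. In Tyk2KO tumors Oas1a (7.52) and Oasl1 (5.71) still led, and Oas2 (0.469) and Oas3 (0.304) were last, below Oas1c (0.929) and Oas1b (0.793), in each of the 3 libraries for the step from Oas1b to Oas2 and from Oas2 to Oas3. Oasl2 went from about the level of Oasl1 to 1.95 CPM per kb.

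**Figure D3:**
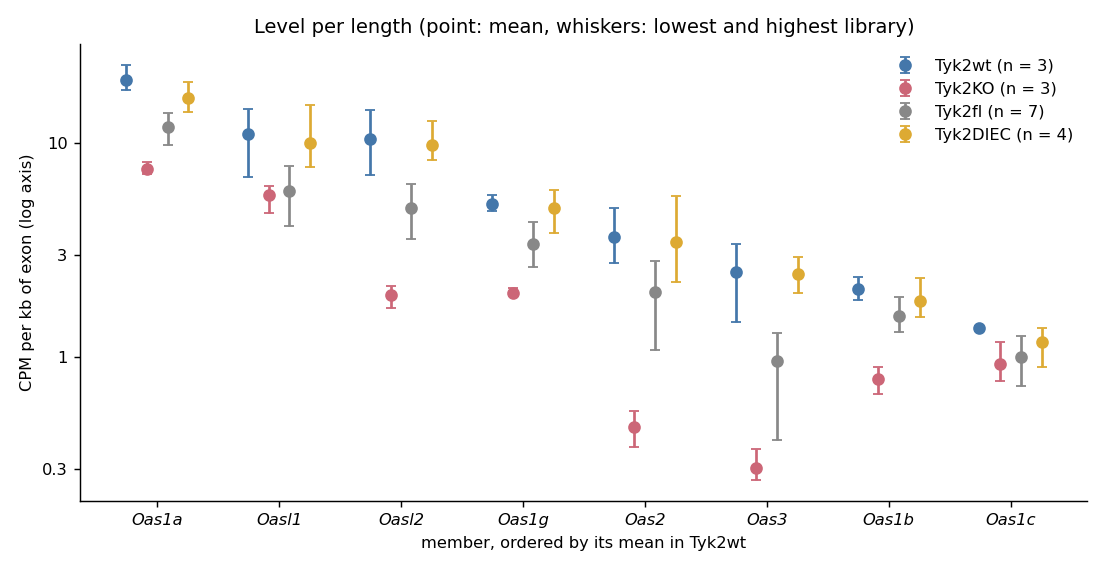
Mean level per length of each member (y axis, CPM per kb of exon, log axis) in the 4 genotypes, with members ordered by their Tyk2wt mean on the x axis. Points are means and whiskers reach from the lowest to the highest library. In Tyk2KO tumors Oas2 and Oas3 sit below all other members, at 0.469 and 0.304 CPM per kb.

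Ratios of read counts within a library do not depend on the scaling of libraries, and 7 such ratios were taken in both experiments, chosen after the levels had been seen. The log2 ratio of Oas3 to Oas1a averaged -1.14 ± 0.47 (SD, n = 3) in Tyk2wt and -2.74 ± 0.17 (n = 3) in Tyk2KO libraries, without overlap, and -1.79 ± 0.44 (n = 7) in Tyk2fl and -0.84 ± 0.20 (n = 4) in Tyk2DIEC libraries, also without overlap. The ratio was lower in every Tyk2KO than in every Tyk2wt library and higher in every Tyk2DIEC than in every Tyk2fl library. An exact two-sided permutation test over libraries gave p = 0.100 in the first, the smallest unadjusted p that 3 against 3 allow, and p = 0.00606 in the second. After Benjamini-Hochberg adjustment over the 14 ratio tests (exact permutation) these were 0.175 and 0.0424. The adjustment does not cover the choice of the pairs from these same libraries. The p-values of the ratios, here and below, therefore describe the pairs and are no independent test of them.

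The log2 ratio of the neighbours Oasl2 and Oasl1 was 1.02 to 1.33 in the Tyk2wt and -0.37 to -0.18 in the Tyk2KO libraries (exact permutation p = 0.100, adjusted 0.175). In Tyk2DIEC and Tyk2fl tumors this ratio overlapped (exact permutation p = 0.285, adjusted 0.443). The divergent genes Oas1b and Oas1c had a log2 ratio of 0.15 to 0.57 in Tyk2wt and -0.66 to -0.19 in Tyk2KO libraries (exact permutation p = 0.100, adjusted 0.175), and overlapping ratios in the other experiment (p = 0.885, adjusted 0.969, exact permutation test). The ratio of Oas1a to Oas1g overlapped, from 1.53 to 1.71 in Tyk2wt and 1.57 to 1.64 in Tyk2KO libraries. For Oas3 to Oas2 the log2 ratio was -0.73 to 0.06 in Tyk2fl and -0.28 to 0.53 in Tyk2DIEC libraries, which overlapped. Its means were -0.42 and 0.24 (exact permutation p = 0.0242, adjusted 0.113).

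**Figure D4:**
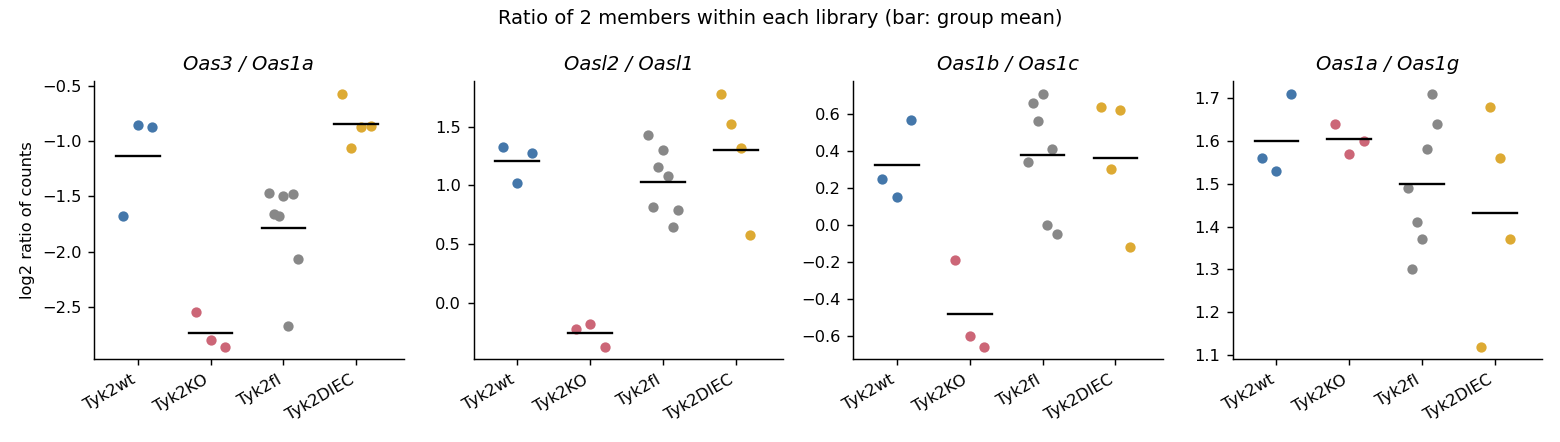
Log2 ratio of the read counts of 2 members within each library (y axes, which do not start at 0) for 4 pairs in the 4 genotypes. Points are libraries and bars group means. The Tyk2KO libraries sit below all Tyk2wt libraries for Oas3 to Oas1a, Oasl2 to Oasl1 and Oas1b to Oas1c, and among them for Oas1a to Oas1g.

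Members also varied together among libraries of one genotype. After the genotype means had been taken out, Pearson's r of log2 CPM over the 17 libraries was 0.19 to 0.85 for the 21 pairs without Oas1c, with Oas3 and Oasl2 highest, and -0.09 to 0.36 for the 7 pairs with Oas1c. In Tyk2fl tumors replicate 5 was the lowest of 7 for 6 of the 8 members, and in Tyk2DIEC tumors replicate 1 was the highest of 4 for 5 of 8. These values describe 17 libraries that share their scaling and are not a test.

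The 5 genes outside the family whose log2 CPM followed the mean of the members most closely over the 17 libraries were Sp100 (Pearson's r = 0.988), Xaf1 (0.985), Samhd1 (0.977), Apol9a (0.976) and Rtp4 (0.975), out of 17252 genes. All 5 are known interferon-stimulated genes. Of the members themselves Oas1a and Oasl2 had the highest r with this mean (both 0.979) and Oas1c the lowest (0.695), with the mean containing each of them.

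Of the nearest protein-coding genes outside the family, Gm9936, 4930519G04Rik and Rph3a had at most 3 reads and were not tested, and the 4 tested ones given here passed in neither comparison. 2210016L21Rik, Rasal1 and Ptpn11 had log2 changes of -0.23 to 0.04 in Tyk2KO and of -0.62 to 0.13 in Tyk2DIEC tumors. Dtx1, a Notch pathway gene with at most 58 reads, had -1.66 ± 0.51 in Tyk2KO tumors (adjusted p = 0.113) and 0.42 ± 0.51 in Tyk2DIEC tumors (0.599).

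Of the genes around the enzymes, Abce1, which encodes an ATP-binding protein of ribosome recycling, and Pde12, which encodes a phosphodiesterase that degrades 2-5A, passed in neither comparison (log2 changes -0.52 ± 0.15 and -0.07 ± 0.06 in Tyk2KO, -0.01 ± 0.05 and -0.07 ± 0.05 in Tyk2DIEC).

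Upstream, the interferons themselves were near the limit of detection. Of 21 ligand genes 14 had 0 reads in every library, none had more than 8 in any and none passed the filter, so no ligand was tested. Ifng, which encodes interferon gamma and is named after its values were seen, had 5, 5 and 6 reads in Tyk2wt and 0, 0 and 1 in Tyk2KO tumors, without overlap. It had 2 to 8 reads in Tyk2fl and 0 to 7 in Tyk2DIEC tumors, which overlapped. Summed over the 21 genes, libraries held 5 to 14 reads in Tyk2wt, 1 to 6 in Tyk2KO, 5 to 15 in Tyk2fl and 4 to 9 in Tyk2DIEC tumors. None of the 6 interferon receptor genes passed in Tyk2KO tumors (log2 changes -0.02 to 0.12), and Ifnar2 (-0.29 ± 0.08) and Il10rb (-0.35 ± 0.11) were lower in Tyk2DIEC tumors (adjusted p = 0.0207 and 0.0346). Of the 4 Janus kinases only Jak2 passed, as higher in Tyk2DIEC tumors (0.32 ± 0.08, adjusted p = 0.0187).

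Among 8 interferon transcription factors 4 fell in Tyk2KO tumors by the adjusted p (2.13% of all genes), namely Stat2, Irf1, Irf7 and Irf9. Irf7 fell by more than 2-fold (log2 change -1.54 ± 0.22, adjusted p = 0.0140). In Tyk2DIEC tumors Irf7 (0.62 ± 0.15), Irf1 (0.48 ± 0.15) and Stat2 (0.38 ± 0.12) rose at adjusted p = 0.0129, 0.0433 and 0.0347, whereas Irf9 (0.19 ± 0.09, 0.167) did not pass.

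Of 5 negative regulators, Usp18, a brake on the type I interferon receptor, and Socs1, an inhibitor of Janus kinases, were called lower in Tyk2KO tumors (log2 changes -1.25 ± 0.14 and -1.31 ± 0.19, adjusted p = 0.00486 and 0.0147) and did not pass in Tyk2DIEC tumors (0.302 and 0.552). Socs3 was lower in Tyk2DIEC tumors (-0.41 ± 0.13, adjusted p = 0.0436).

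Of the 8 other sensors and modifiers of double-stranded RNA 5 fell in Tyk2KO (2.13% of all genes) and 5 rose in Tyk2DIEC tumors (10.2% of all genes) by the adjusted p. Zbp1, a sensor of Z-form nucleic acid, fell by 1.93 ± 0.20 on the log2 scale in Tyk2KO tumors (adjusted p = 0.00303) and rose by 0.93 ± 0.19 in Tyk2DIEC tumors (0.00745). Dhx58, which encodes the RNA helicase LGP2, had -1.66 ± 0.16 (0.00265) and 0.77 ± 0.14 (0.00354). Eif2ak2 and Ifih1 also passed as lower in the first and higher in the second comparison, Tlr3 only as lower in Tyk2KO and Adar only as higher in Tyk2DIEC tumors, and Ddx58 and Mavs in neither.

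Over all 33 pathway genes tested of the 58 reported, 11 were lower and 0 higher in Tyk2KO tumors by the adjusted p (2.13% and 0.668% of all genes), 5 of them by more than 2-fold (3 without Tyk2KO replicate 2). In Tyk2DIEC tumors 9 were higher and 3 lower (10.2% and 9.71% of all genes), none by more than 2-fold. Of the 11 lower in Tyk2KO tumors 7 were among the 9 higher in Tyk2DIEC tumors.

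**Figure D5:**
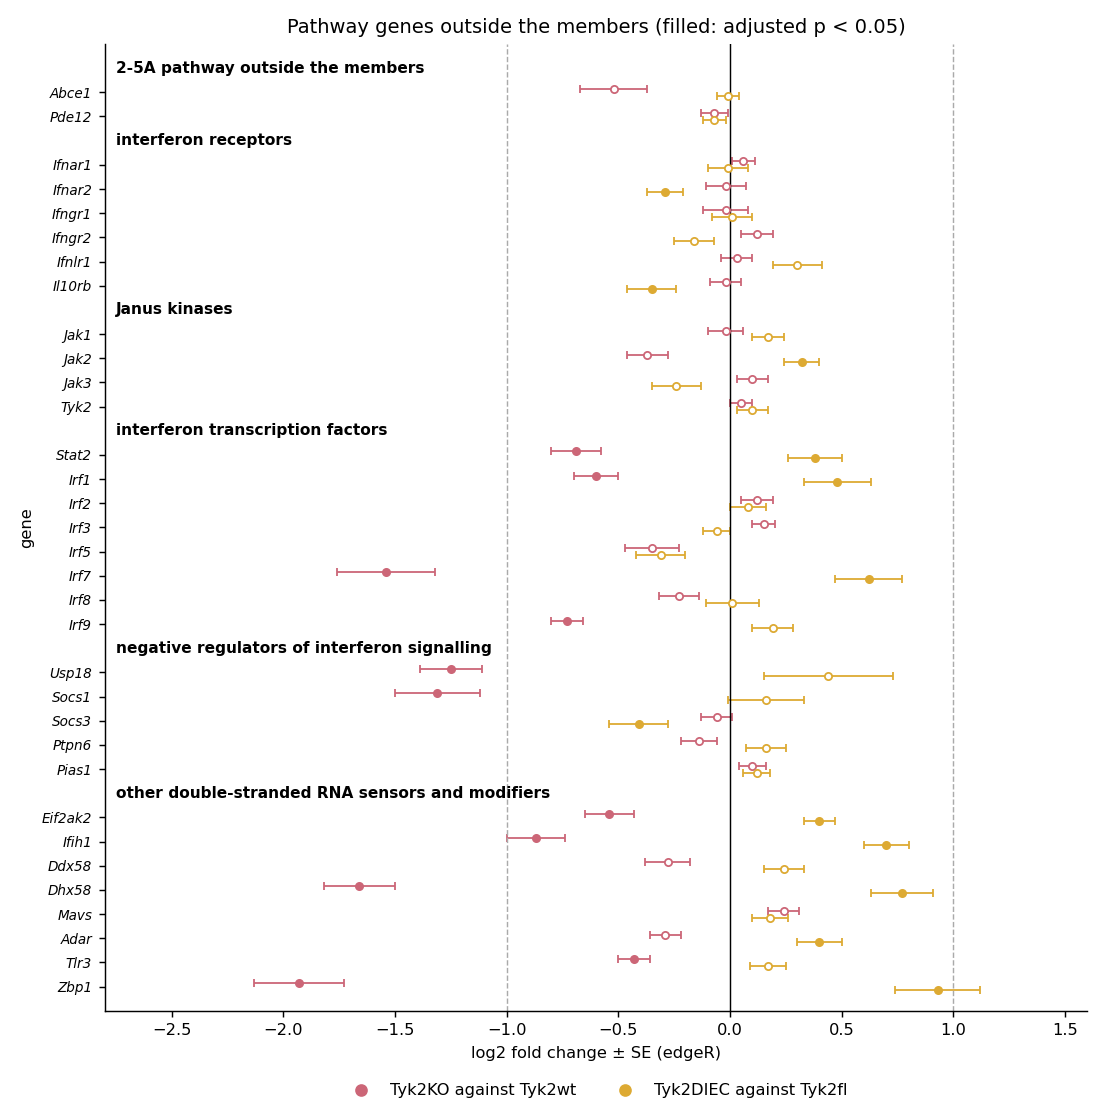
Log2 fold change with its standard error (x axis, edgeR) of the 33 pathway genes tested (y axis, grouped by list) in Tyk2KO against Tyk2wt and in Tyk2DIEC against Tyk2fl tumors. Filled points passed an adjusted p of 0.05, and dashed lines mark a 2-fold change. Zbp1, Dhx58, Irf7, Socs1 and Usp18 lie below the lower dashed line in Tyk2KO tumors, and receptors lie near 0.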

How the data were processed

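The deposited values are raw read counts per gene. By the study's methods the authors prepared directional poly(A) libraries, read 75 bases from one end, aligned with STAR 2.6.1a and took its counts per gene with Gencode mV23 annotations. The submitters' processing notes name GRCm38. Whether STAR's stranded column was taken is not given in the sources used here.

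Libraries were grouped by the genotype label. Low genes were removed with filterByExpr (at least 10 reads, at least 15 in total), TMM factors were computed and genotypes compared with the quasi-likelihood F test of edgeR 4.0.16 in R 4.3.3, within each experiment, and over all 17 libraries for the difference, the controls and the order of genotypes. Standard errors were |log2 change| divided by the square root of F, and intervals are 1.96 standard errors either side. Log2 CPM used a prior count of 2. Positions and exon lengths came from GENCODE release 21 (GRCm38), promoters from RefSeq. Counting error is covered by the count model. The steps were tested on simulated data.

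Named genes were all 8 members, 6 fixed pathway genes, up to 4 called genes per pathway list, the 5 genes most like the members, the nearest genes outside each cluster, and Xist. A few further genes of these lists are not reported here. Others of a list are named where they passed. Members and lists were chosen with earlier results of these data known. Alternatives were DESeq2 1.42.0, limma 3.58.1 voom, other scalings and filters, no fold minimum, a test against 1.5-fold, 1 fit for all libraries, a replicate block, Tyk2fl replicates 4 to 7 only, and leaving out each library. Figures were drawn with matplotlib 3.10.9. The single-sample tables held the same values as the experiment tables.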

Additional observations from a re-analysis of the deposited data

Results flagged for a closer look

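The change in Tyk2KO against Tyk2wt minus that in Tyk2DIEC against Tyk2fl passed an adjusted p of 0.05 for 11 of 14 genes examined (edgeR, all 17 libraries), all 11 as lower, as did 5.23% of all genes. On the log2 scale it was -4.38 for Oas3, -3.72 for Oas2, -3.40 for Oasl2, -1.93 for Oas1g, -1.84 for Oas1a, -1.69 for Oasl1 and -1.61 for Oas1b. Among the fixed pathway genes it was -2.15 for Irf7, -1.06 for Stat2, -0.92 for Irf9 and -0.50 for Abce1.

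By Dixon's ratio (the gap of the highest or lowest library to its nearest neighbour, over the range of the group) no library was past the 95% critical value in the 28 groups of 4 or 7 libraries examined for these genes. The nearest to it were Tyk2DIEC replicate 4 for Oasl1, at a ratio of 0.827 and just short of the value, and Tyk2DIEC replicate 1 for Oasl2, at 0.781.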

How the results depend on the processing

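Every member kept the direction of its change under all alternatives run, in both comparisons, in the difference and between the controls. Of the 8 members, 6 were lower in Tyk2KO tumors under all alternatives except a test against 1.5-fold (5), and 5 to 7 when a library was left out. The count of members higher in Tyk2DIEC tumors was 2 with scaling by library total alone, 5 with no fold minimum, 0 in a test against 1.5-fold, and 1 to 2 when a library was left out (2 without Tyk2DIEC replicate 2 or 3 or Tyk2fl replicate 1 or 4). The count different between Tyk2wt and Tyk2fl was 0 in a test against 1.5-fold, 5 with no fold minimum and 0 to 3 without single libraries (0 without Tyk2wt replicate 3, 1 without Tyk2fl replicate 5). The difference between the deletions passed for 7 members under all alternatives except a test against 1.5-fold (6). With no fold minimum, pathway genes lower in Tyk2KO tumors were 11 instead of 5, and those lower and higher in Tyk2DIEC tumors 3 and 9. In a test against 1.5-fold 3 pathway genes were lower in Tyk2KO tumors, and 3 to 5 when a library was left out (3 without Tyk2KO replicate 2). Of the promoters, 3 instead of 4 held the core followed by a further C (0.819% of all).

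No pairing by replicate number was seen in the expression values, though deviations from the means of so few libraries cannot exclude one. Deviations from the group means correlated at -0.082 to -0.003 for same-numbered Tyk2wt and Tyk2KO libraries and at -0.389 to 0.078 for Tyk2fl and Tyk2DIEC. With the replicate number as a block the count lower in Tyk2KO tumors was 6, that higher in Tyk2DIEC tumors 1 and that differing between the deletions 7, while Oas1g had an adjusted p of 0.0858 in Tyk2DIEC tumors. Over all genes the block took the calls in Tyk2DIEC tumors from 262 higher and 289 lower to 104 and 125. For genes as low as Oas1b and Oas1c, with 27 to 131 reads, the depth limits the precision.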
